A study of Mus musculus with 5 samples.

Results

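The RGS genes encode regulators of G-protein signalling, and 10 of them (*Rgs2*, *Rgs3*, *Rgs4*, *Rgs5*, *Rgs10*, *Rgs12*, *Rgs14*, *Rgs16*, *Rgs17* and *Rgs19*), out of 21835 genes in the table, are described here in murine lung cancer-associated fibroblasts (CAFs) with and without miR-200. They were listed by name and had been selected on values measured in these same samples, so their differences between the groups are given as a description, with no *p* value, and counts of them past a threshold are given beside the share of all genes, as a description. RNA was sequenced from CAFs transduced with a lentiviral vector without insert (CAF-vec, 2 samples, given as wild-type control in the labels) and from CAFs transduced with the same kind of vector encoding miR-200b, miR-429 and miR-200a (CAF-200, 3 samples, given as miR-200 overexpression). Both groups are lung CAFs grown in alpha-MEM with serum. The labels name the vector pLVX-Neo with G418 selection for more than 2 weeks, whereas the study's methods name a hygromycin-resistant vector. The labels name the cells as 1 CAF line, and neither source states that the samples were separate cultures, so *p* values measure only the spread between these samples, which may be technical. The authors' values are in CPM, that is, the reads of a gene scaled to nearly the same total in each sample, and differences are given on log2(CPM + 0.5), which understates the change of genes with low values.

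RGS proteins bind the active, GTP-loaded α subunit of heterotrimeric G proteins through a shared RGS domain and speed up GTP hydrolysis, which shortens the signal from G protein-coupled receptors. In fibroblasts and vascular mural cells, such receptors respond to lysophospholipids, thrombin, endothelin and angiotensin, ligands that drive contraction and migration. The small R4 subfamily members (*Rgs2*, *Rgs3*, *Rgs4*, *Rgs5* and *Rgs16*) act on Gαi and Gαq, with *Rgs2* preferring Gαq; the R12 members (*Rgs10*, *Rgs12* and *Rgs14*) act mainly on Gαi, and *Rgs12* and *Rgs14* carry further scaffold domains; the RZ members (*Rgs17* and *Rgs19*) act on Gαi and Gαz.

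The overexpressed cluster encodes miR-200b, miR-200a and miR-429, which bind mRNAs mainly through the seed (bases 2 to 8). The 3 mature sequences are shown because they define the letters searched for in the RGS mRNAs. They are from RefSeq (GRCm38.p6), lie on the minus strand of chromosome 4 (chr4:156055685-156055706, chr4:156054911-156054932 and chr4:156053916-156053937), and are written 5′ to 3′ with the seed in capitals. miR-200b and miR-429 share a seed, and the seed of miR-200a differs from it at a single base.
mmu-miR-200b-3p: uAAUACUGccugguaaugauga
mmu-miR-429-3p: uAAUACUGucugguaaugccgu
mmu-miR-200a-3p: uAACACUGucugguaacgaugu

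The longest annotated 3′-UTR of each of the 10 RGS genes was searched for the 7-letter match to either seed, CAGTATT for miR-200b and miR-429 and CAGTGTT for miR-200a. Of the 10 genes, 2 held a match, *Rgs4* and *Rgs17*, and 8 held none, while 30.3% of 12057 tested genes with an annotated 3′-UTR held a match to either seed (15.7% for CAGTATT and 20.9% for CAGTGTT). The 2 sites of *Rgs4* and the 3 sites of *Rgs17*, all for miR-200a, are shown with 10 bases on each side and the match in capitals, on the strand of the mRNA (GRCm38, minus strand for both genes). The *Rgs4* sites lie at bases 1497 and 1831 of a 3′-UTR of 2204 bases (chr1:169742178-169742184 and chr1:169741844-169741850). The *Rgs17* sites lie at bases 1882, 2613 and 6348 of a 3′-UTR of 7290 bases (chr10:5831065-5831071, chr10:5830334-5830340 and chr10:5826599-5826605), far longer than the median of 1175 bases over tested genes. *Rgs16*, with 1613 bases, and *Rgs2*, with 2342 bases, held no match in their longest 3′-UTRs. A match is a stretch of letters, and binding was not measured.
Rgs4 site at base 1497: atgttttgtaCAGTGTTtttattattg
Rgs4 site at base 1831: gctcccccatCAGTGTTcctaactcct
Rgs17 site at base 1882: ttaactgttgCAGTGTTtgacaaaatg
Rgs17 site at base 2613: taggcatttgCAGTGTTtgatttcaaa
Rgs17 site at base 6348: aagtccgaagCAGTGTTagcttggcta

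Among the R4 genes, *Rgs16* was higher in CAF-200, *Rgs2* was higher to a smaller extent and *Rgs4* was lower, and in each of these the values of the groups did not overlap. *Rgs3* overlapped between the groups, and *Rgs5* was near 0 in every sample. In these bulk samples, fewer cells of a type and less RNA per cell cannot be told apart. The plot of all 10 genes by sample shows that the *Rgs16* values of the groups lay farthest apart.

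**Figure D1:**
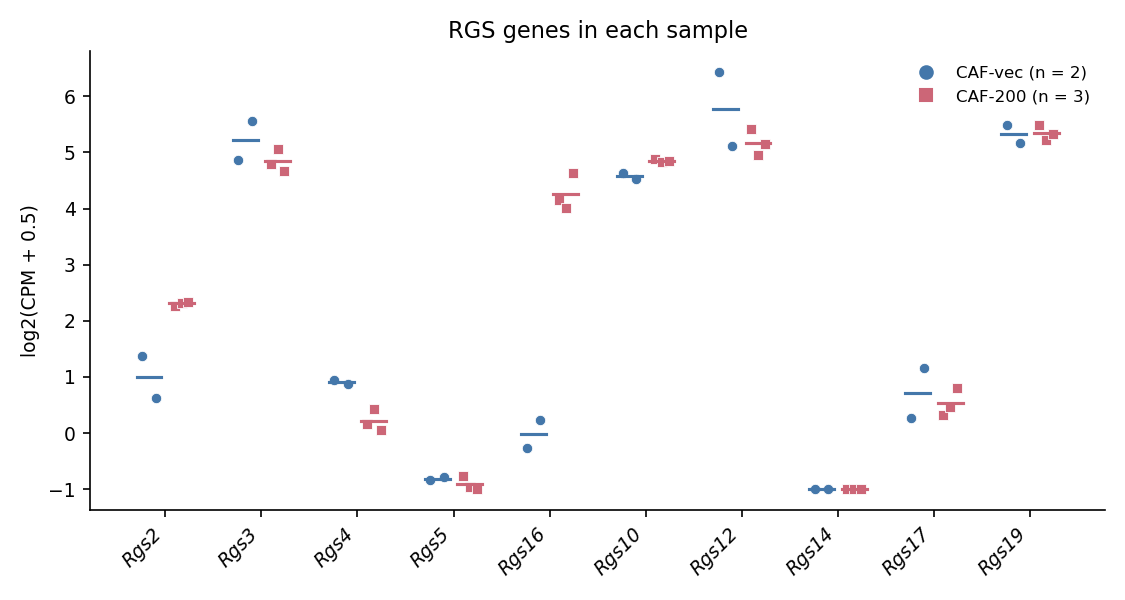
Each point is 1 sample of CAF-vec (circles, n = 2) or CAF-200 (squares, n = 3) and each bar is the mean, on log2(CPM + 0.5), for the 10 RGS genes ordered by subfamily (R4, R12, RZ). *Rgs16* lies at 0.330 and 0.670 CPM in CAF-vec and between 15.6 and 24.3 CPM in CAF-200, whereas *Rgs19* overlaps between the groups and *Rgs14* lies at the floor in all 5 samples.

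*Rgs16* (ENSMUSG00000026475, GRCm38 chr1:153740349-153745468, plus strand), whose product acts on Gαi and Gαq, was at 0.330 and 0.670 CPM in CAF-vec and at 17.2, 15.6 and 24.3 CPM in CAF-200. Both CAF-vec values were low, and the lowest CAF-200 value lay far above the higher CAF-vec value. The CAF-vec mean was 0.50 ± 0.240 CPM (SD, n = 2), against a CAF-200 mean of 19.0 ± 4.61 CPM (SD, n = 3), a ratio of 38.05, and the log2 difference was 4.28 (standard error 0.241). The size of this difference depended on the pseudocount, with 5.03 at a pseudocount of 0.1 and 3.72 at 1, and it was 4.03 to 4.53 when any 1 sample was left out. An antisense gene, *Gm28513*, overlaps *Rgs16* on the other strand. The libraries were stranded, but whether the counting used the strand is not given in the sources used here. The neighbouring gene *Rgs8*, on the same strand 40.0 kb away and with no protein-coding gene between them, did not exceed 0.0106 CPM in any sample.

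*Rgs2* (ENSMUSG00000026360, GRCm38 chr1:143999338-144004161, minus strand), the Gαq-preferring member known for damping vasoconstrictor signals, was at 2.08 and 1.04 CPM in CAF-vec and at 4.30, 4.51 and 4.56 CPM in CAF-200. The CAF-200 samples were close to each other and all above the CAF-vec samples, which differed from each other by a ratio of 1.99. The CAF-vec mean was 1.56 ± 0.732 CPM (SD, n = 2), against a CAF-200 mean of 4.46 ± 0.137 CPM (SD, n = 3), a ratio of 2.85 and a log2 difference of 1.31 (standard error 0.228). Leaving out CAF-vec replicate 2 brought the difference to 0.94 and leaving out replicate 1 to 1.68, so its size rested on which CAF-vec sample was used.

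*Rgs4* (ENSMUSG00000038530, GRCm38 chr1:169741477-169747642, minus strand), which acts on Gαi and Gαq and carries the 2 miR-200a matches shown above, was at 1.43 and 1.34 CPM in CAF-vec and at 0.622, 0.840 and 0.535 CPM in CAF-200. All CAF-200 samples were below both CAF-vec samples, at levels near the filter of 0.5 CPM. The CAF-vec mean of 1.39 ± 0.0680 CPM (SD, n = 2) was 2.08 times the CAF-200 mean of 0.665 ± 0.157 CPM (SD, n = 3), with a log2 difference of -0.70 (standard error 0.169). That difference was -0.98 at a pseudocount of 0.1 and -0.52 at a pseudocount of 1. It ranged from -0.81 to -0.62 when any 1 sample was left out.

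*Rgs3* (ENSMUSG00000059810, GRCm38 chr4:62559847-62704001, plus strand), an R4 member with long and short isoforms, was at 28.8 and 46.7 CPM in CAF-vec and at 27.2, 32.7 and 25.0 CPM in CAF-200. The groups overlapped, since 1 CAF-200 sample lay above CAF-vec replicate 1. The log2 difference of -0.38 (standard error 0.226) was -0.72 without CAF-vec replicate 1 and -0.04 without CAF-vec replicate 2. *Rgs5* (ENSMUSG00000026678, GRCm38 chr1:169655501-169695813, plus strand), which is known as a marker of pericytes, was at 0.0567 and 0.0791 CPM in CAF-vec and at 0.0905, 0.0108 and 0.000275 CPM in CAF-200. These values overlapped and were too low for a comparison. No gene in the table was at 0 in only some of the CAF-200 samples, so very low values such as 0.000275 CPM cannot be read as whole reads.

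Promoter sequences of the 3 genes whose groups did not overlap within the R4 subfamily are shown because 2 of them were higher and 1 lower in CAF-200. The 250 bases before each start are from RefSeq (GRCm38.p6), written 5′ to 3′ on the strand of the gene, with matches in capitals. The motifs searched on both strands were the cAMP response element TGACGTCA, the AP-1 site TGACTCA, the TATA box TATAAA and the CCAAT box CCAAT, held by 1.55%, 4.46%, 12.4% and 33.8% of 32851 promoters of this length. *Rgs16* (chr1:153740103-153740352, plus strand) held a CCAAT box on the opposite strand at position -68 from the start. *Rgs2* (chr1:144004150-144004399, minus strand) held a CCAAT box at -94. *Rgs4* (chr1:169747643-169747892, minus strand) held a TATA box at -31 and a CCAAT box on the opposite strand upstream of it. Over the 13 promoters of the 9 RGS genes in the promoter table, a CCAAT box occurred in 4 genes, a TATA box in 2, an AP-1 site in 2 and a cAMP response element in 0. The matches are descriptions of the letters, and factor binding was not measured.
Rgs16 promoter: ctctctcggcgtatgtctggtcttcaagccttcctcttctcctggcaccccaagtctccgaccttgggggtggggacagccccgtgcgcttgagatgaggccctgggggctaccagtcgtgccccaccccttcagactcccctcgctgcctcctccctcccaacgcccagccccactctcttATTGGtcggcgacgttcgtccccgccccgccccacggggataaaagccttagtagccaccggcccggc
Rgs2 promoter: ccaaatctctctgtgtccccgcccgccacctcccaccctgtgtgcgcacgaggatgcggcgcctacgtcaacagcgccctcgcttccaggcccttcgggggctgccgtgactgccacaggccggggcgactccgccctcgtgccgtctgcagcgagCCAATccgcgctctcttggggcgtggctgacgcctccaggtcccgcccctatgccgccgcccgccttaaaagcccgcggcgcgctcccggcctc
Rgs4 promoter: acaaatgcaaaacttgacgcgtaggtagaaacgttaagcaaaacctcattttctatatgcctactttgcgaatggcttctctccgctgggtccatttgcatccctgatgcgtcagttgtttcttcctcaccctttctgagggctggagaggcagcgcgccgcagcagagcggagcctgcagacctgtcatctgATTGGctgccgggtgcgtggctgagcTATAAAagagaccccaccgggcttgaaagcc

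*Rgs16*, *Rgs2* and *Rgs4* lie on the same chromosome. Of 22 RGS genes (the 10 described and 12 others), 12 are on chromosome 1, including 4 of the 10. *Rgs4* and *Rgs5* are neighbours 45.7 kb apart with no protein-coding gene between them. *Rgs2* lies 134.5 kb from *Rgs13*, with no protein-coding gene between them, in a run with *Rgs1*, *Rgs21* and *Rgs18*, and the 4 other genes of this run were listed at 0 in all 5 samples.

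Among the R12 genes, *Rgs10* was slightly higher in CAF-200, *Rgs12* overlapped between the groups and *Rgs14* was listed at 0. *Rgs10* (ENSMUSG00000030844, GRCm38 chr7:128373621-128418758, minus strand), a short protein selective for Gαi, was at 24.3 and 22.5 CPM in CAF-vec and at 29.0, 28.1 and 28.3 CPM in CAF-200. All CAF-200 samples lay above both CAF-vec samples, with means of 28.5 ± 0.454 CPM (SD, n = 3) and 23.4 ± 1.23 CPM (SD, n = 2). The log2 difference was 0.28 (standard error 0.0848), or 0.37 after centring each sample on its median and 0.38 after quantile normalization.

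*Rgs12* (ENSMUSG00000029101, GRCm38 chr5:34949445-35039644, plus strand), a large scaffold with PDZ and phosphotyrosine-binding domains, was at 86.4 and 34.1 CPM in CAF-vec and at 42.5, 30.5 and 35.1 CPM in CAF-200. CAF-vec replicate 1 stood apart from the other 4 samples, at 2.53 times CAF-vec replicate 2. The log2 difference of -0.60 (standard error 0.387) was -1.26 without CAF-vec replicate 2 and 0.065 without CAF-vec replicate 1, so it rested on CAF-vec replicate 1. *Rgs14* (ENSMUSG00000052087, GRCm38 chr13:55369732-55384687, plus strand), a scaffold that binds Gαi and Ras-family GTPases, was listed at 0 in all 5 samples.

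Neither RZ gene separated the groups. *Rgs17* (ENSMUSG00000019775, GRCm38 chr10:5825663-5922400, minus strand), which carries the 3 miR-200a matches shown above, was at 0.710 and 1.73 CPM in CAF-vec and at 0.743, 0.884 and 1.25 CPM in CAF-200. All 3 CAF-200 values lay between the CAF-vec values. The log2 difference of -0.19 (standard error 0.304) was 0.25 without CAF-vec replicate 2 and -0.63 without CAF-vec replicate 1. *Rgs19* (ENSMUSG00000002458, GRCm38 chr2:181688419-181693977, minus strand), also known as GAIP, was at 44.4 and 35.4 CPM in CAF-vec and at 44.2, 36.8 and 39.5 CPM in CAF-200. These values overlapped, with a log2 difference of 0.01 (standard error 0.136).

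**Figure D2:**
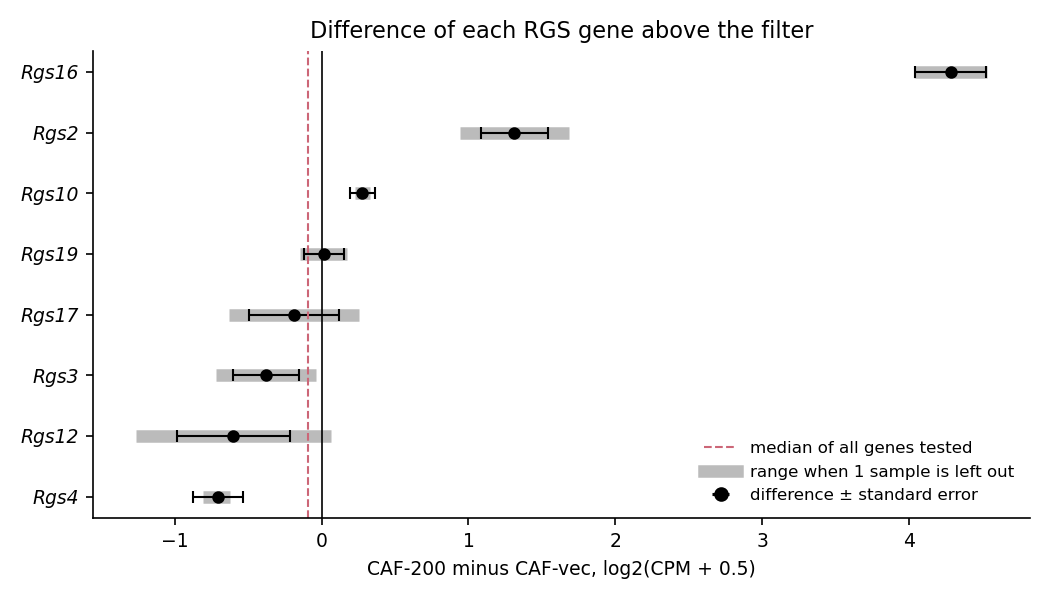
Points are the CAF-200 minus CAF-vec difference on log2(CPM + 0.5) with its standard error for the 8 RGS genes above the filter, grey bars are the range when 1 sample is left out, and the dashed line is the median of all genes tested (-0.094). *Rgs16* (4.28) and *Rgs2* (1.31) lie to the right of 0 over their whole ranges and *Rgs4* (-0.70) to the left, while the bars of *Rgs12*, *Rgs17* and *Rgs19* cross 0.

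Of the 10 genes, 8 passed the filter of at least 0.5 CPM in at least 2 samples. *Rgs16* reached 0.5 CPM in CAF-vec replicate 2 but not in replicate 1, so it passed only through CAF-200, where it was high. The groups did not overlap in 4 of the 8 (*Rgs16*, *Rgs2*, *Rgs10* and *Rgs4*), where 61.6% of all 12175 genes tested did not overlap in either direction. Past both thresholds (limma, adjusted *p* under 0.01 and a log2 difference beyond 1) there was 1 gene in the higher direction, *Rgs16*, where 2.37% of all genes passed, and 0 in the lower direction, where 2.35% passed. At an adjusted *p* under 0.01 and any fold the count was also 1, where 10.0% of all genes passed. Because the genes were selected on this contrast, and *Rgs16* owed its place above the filter to CAF-200, these counts only describe them. The median difference of the 8 was -0.09 on the log2 scale, and that of all genes tested was also -0.09. Centring each sample on its median moved the median of all genes to 0.003, and it changed the split of called genes from 286 lower and 289 higher to 228 lower and 365 higher.

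The summed level of the 10 genes was 143.6 and 188.5 CPM in CAF-vec and between 149.9 and 165.7 CPM in CAF-200, so the sums overlapped. Levels of different genes were compared per kb of the longest coding transcript. In CAF-vec, *Rgs10* (26.6 ± 1.40 CPM per kb, SD, n = 2) and *Rgs19* (26.4 ± 4.23 CPM per kb) were highest and did not differ beyond their spread. *Rgs12* and *Rgs3* followed, at 11.0 ± 6.76 and 8.04 ± 2.68 CPM per kb, and these also overlapped. *Rgs2*, *Rgs4*, *Rgs16*, *Rgs17* and *Rgs5* were below 1 CPM per kb in both CAF-vec samples. *Rgs16* was the seventh of the 10 in CAF-vec, at 0.214 ± 0.103 CPM per kb, where its values overlapped those of *Rgs17*. In CAF-200, *Rgs16* was the third, at 8.13 ± 1.97 CPM per kb (SD, n = 3), and its values overlapped those of *Rgs12* (6.58 ± 1.10 CPM per kb) and *Rgs3* (6.02 ± 0.846 CPM per kb). *Rgs10*, at 32.3 ± 0.516 CPM per kb, lay above *Rgs19*, at 26.6 ± 2.46 CPM per kb, in every CAF-200 sample. The other genes kept their order relative to each other between the groups.

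**Figure D3:**
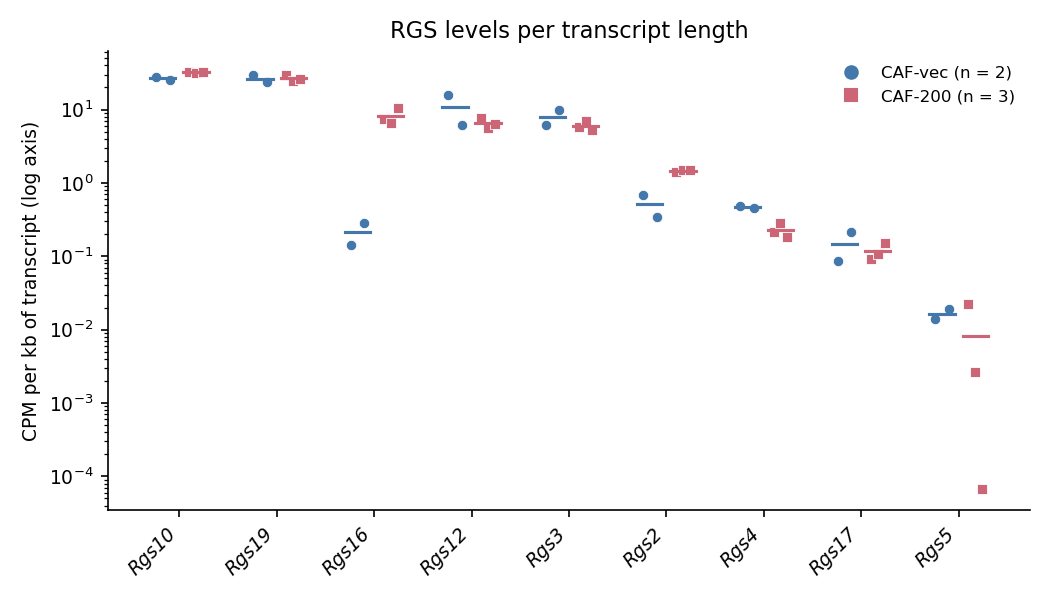
Points are CPM per kb of the longest coding transcript in each sample (log axis) for the 9 RGS genes above 0, ordered by their CAF-200 mean, with bars for the group means (circles, CAF-vec, n = 2; squares, CAF-200, n = 3). *Rgs16* moves from 0.214 CPM per kb, beside *Rgs17*, to 8.13 CPM per kb, beside *Rgs12* and *Rgs3*.

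The genes with values most like those of *Rgs16*, by Euclidean distance over the 5 samples of log2(CPM + 0.5) among 12174 other genes, were *Gpx3*, *Ptgis* and *Cxcl14*, at distances of 1.49, 1.79 and 1.87. *Gpx3*, a secreted glutathione peroxidase, was at 0.326 and 0.168 CPM in CAF-vec and at 11.5, 12.2 and 11.3 CPM in CAF-200. *Ptgis*, which makes prostacyclin, was at 1.68 and 0.495 CPM in CAF-vec and at 12.5, 11.6 and 12.7 CPM in CAF-200. *Cxcl14*, a chemokine, was at 0.464 and 0.499 CPM in CAF-vec and at 39.9, 33.7 and 45.6 CPM in CAF-200. In all 3 genes the groups did not overlap, with CAF-200 above CAF-vec. Like *Rgs16*, all 3 passed the filter only through CAF-200, where they were high. These genes were found by their likeness to *Rgs16* in the same samples, so the likeness is a description.

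The other genes of the pathway were grouped in 6 lists, and in these, differences were tested with limma and Benjamini-Hochberg adjustment over all 12175 genes. The number past both thresholds was 0 lower and 3 higher over all 6 lists, and 1 of the 3, *Ednra*, passed the filter only through CAF-200, where it was high, so its call is no support for a difference. Of all 12175 genes, 2.37% were called higher, 2.35% were called lower, and 44.9% had an unadjusted *p* under 0.05, so the counts at an unadjusted *p* given for the lists are to be read against that share. Of 12 other RGS genes, 2 passed the filter, 5 were listed at 0 in all samples and 0 were called, also at an unadjusted *p* under 0.05. *Rgs20*, an RZ member, was at 5.24 and 3.72 CPM in CAF-vec and at 6.56, 5.47 and 5.38 CPM in CAF-200 (limma log2 fold-change 0.35 at an adjusted *p* of 0.171). *Rgs11*, an R7 member that pairs with Gβ5, was at 1.23 and 2.03 CPM in CAF-vec and at 1.36, 1.13 and 1.02 CPM in CAF-200 (limma log2 fold-change -0.33 at an adjusted *p* of 0.264). Neither difference passed the test, and the size of both depended on which CAF-vec sample was used. Without CAF-vec replicate 1 or 2 the log2 fold-change was 0.57 or 0.13 for *Rgs20* and -0.61 or -0.06 for *Rgs11*.

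**Figure D4:**
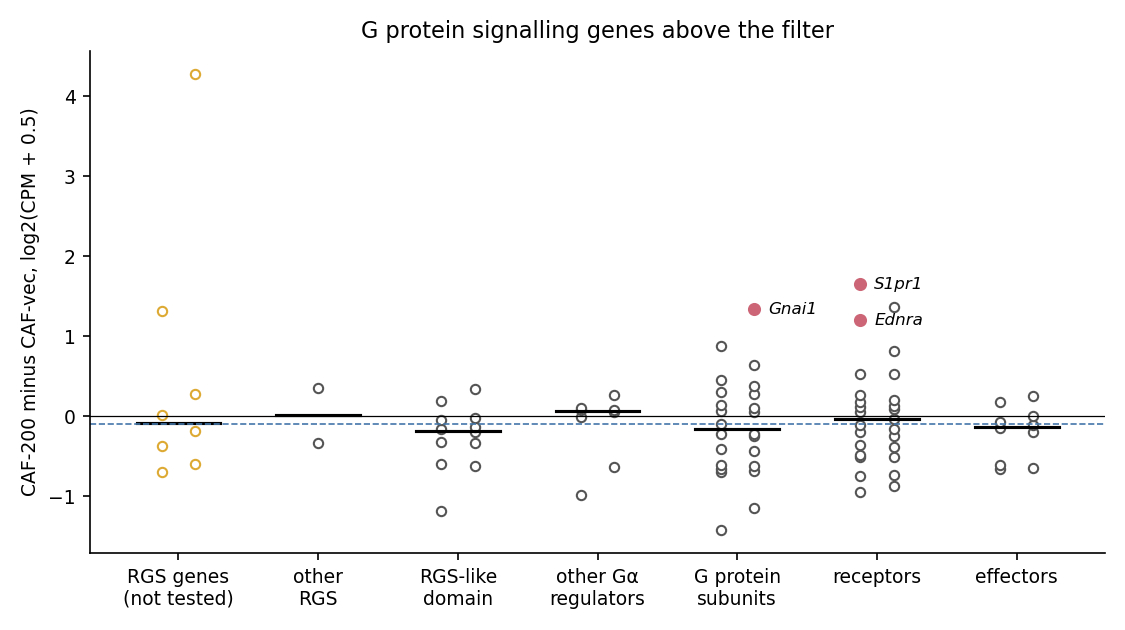
Each circle is the CAF-200 minus CAF-vec difference on log2(CPM + 0.5) of 1 gene above the filter, black bars are list medians, the dashed line is the median of all genes tested, and filled circles mark genes past both thresholds (limma) in the 6 tested lists. The filled genes are *Gnai1* (1.34), *S1pr1* (1.65) and *Ednra* (1.20), and the medians of all 7 columns lie between -0.19 and 0.06.

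Among 33 heterotrimeric G protein subunit genes, the substrates of RGS proteins and their partners, 24 passed the filter, and 1, *Gnai1*, was higher past both thresholds while 0 were lower (limma, with 10 of 24 at an unadjusted *p* under 0.05, where the share over all genes was 44.9%). *Gnai1*, a Gαi subunit that inhibits adenylyl cyclase, was at 0.659 and 0.960 CPM in CAF-vec and at 2.76, 2.78 and 2.80 CPM in CAF-200. Its CAF-200 values were all above the CAF-vec values, with a limma log2 fold-change of 1.34 ± 0.149 (standard error) and an adjusted *p* of 0.00421. Without CAF-200 replicate 1, 2 or 3 its log2 fold-change stayed between 1.33 and 1.34, but the call was lost (adjusted *p* = 0.0312, 0.0328 or 0.0355, limma), in fits that called 0 or 1 of all 12175 genes. *Gnaz*, the Gαz subunit on which the RZ members act, was chosen after its values were seen. It was at 10.6 and 4.80 CPM in CAF-vec and at 2.77, 2.13 and 2.21 CPM in CAF-200 (limma log2 fold-change -1.43 at an adjusted *p* of 0.0236), which did not pass the adjusted *p* of 0.01. The log2 fold-change of *Gnaz* was -0.89 without CAF-vec replicate 1 and -1.97 without CAF-vec replicate 2, with adjusted *p* values between 7.03e-05 and 0.0946 under the other settings (limma). The median over the 24 subunits was -0.16, and that over all genes was -0.09.

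Of 56 G protein-coupled receptor genes, 27 passed the filter and 14 were listed at 0 in all samples, and 2 were higher and 0 lower past both thresholds (limma, with 14 of 27 at an unadjusted *p* under 0.05, where the share over all genes was 44.9%). *S1pr1*, a Gαi-coupled receptor for sphingosine-1-phosphate, was at 5.85 and 6.60 CPM in CAF-vec and at 20.9, 19.5 and 21.1 CPM in CAF-200. The groups were well apart, with a limma log2 fold-change of 1.65 ± 0.101 (standard error) and an adjusted *p* of 0.00145. *Ednra*, the endothelin receptor A that signals mainly through Gαq, was at 0.0279 and 0.0394 CPM in CAF-vec and at 0.910, 0.763 and 0.535 CPM in CAF-200. The CAF-vec values were near 0, so that *Ednra* passed the filter only through the CAF-200 samples, where it was high, and its log2 difference of 1.20 ± 0.192 (standard error) is given as a description. Without CAF-200 replicate 1, 2 or 3 the call of *S1pr1* was lost (adjusted *p* = 0.0205, 0.0195 or 0.0229, limma), in the fits that called 0 or 1 of all genes, while its log2 fold-change stayed between 1.62 and 1.68. The call of *Ednra* was also lost in these fits, at a pseudocount of 1 (log2 difference 0.74) and after quantile normalization (1.02), and its difference was 2.62 at a pseudocount of 0.1.

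**Figure D5:**
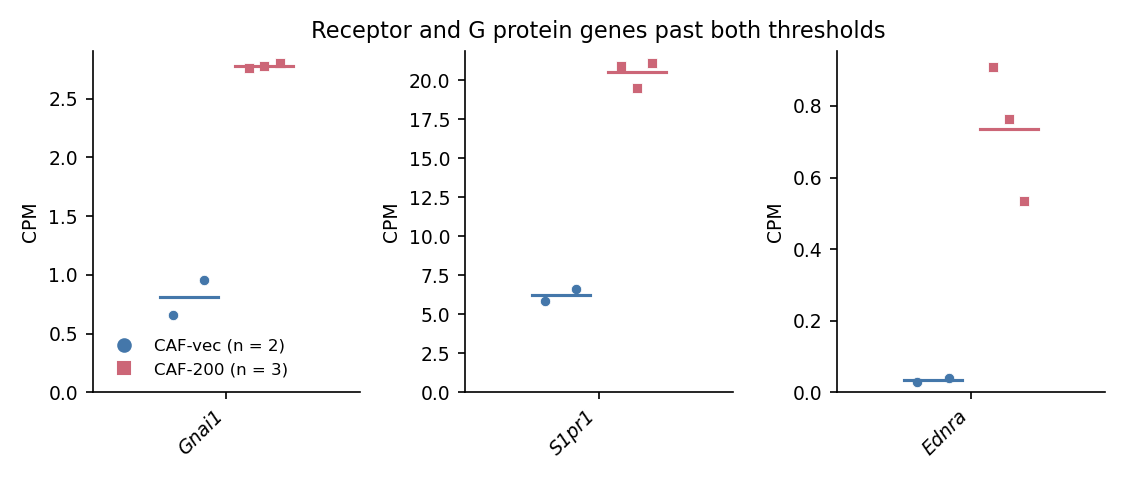
CPM in each sample for *Gnai1*, *S1pr1* and *Ednra* (circles, CAF-vec, n = 2; squares, CAF-200, n = 3), with bars for the group means and a separate scale in each panel that starts at 0. In all 3 genes every CAF-200 sample lies above both CAF-vec samples, and *Ednra* stays below 1 CPM in every sample.

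Other receptors passed the adjusted *p* of 0.01 without passing the fold threshold, in both directions, and those named here were singled out after their values were seen. *Adrb3*, a β-adrenergic receptor gene, had a limma log2 fold-change of -0.88 at an adjusted *p* of 0.00887. *Lpar2*, a lysophosphatidic acid receptor, had a limma log2 fold-change of -0.75 and an adjusted *p* of 0.00981. *Ackr3*, an atypical chemokine receptor, had a limma log2 fold-change of 0.81 and an adjusted *p* of 0.00869. *Bdkrb1*, the bradykinin receptor B1, was the reverse case, past the fold threshold with a log2 difference of 1.36 but not past the adjusted *p* of 0.01. It passed the filter only through CAF-200, where it was high, so this difference is a description. The median over the 27 receptors was -0.04.

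The 3 remaining lists held 0 genes past both thresholds. Among 14 genes for proteins with an RGS-like domain, 12 passed the filter, with a median of -0.19 and 6 of 12 at an unadjusted *p* under 0.05, where the share over all genes was 44.9%. In this list, the receptor kinase gene *Grk4* was at 4.33 and 2.96 CPM in CAF-vec and at 1.68, 1.67 and 0.731 CPM in CAF-200 (limma log2 fold-change -1.19 at an adjusted *p* of 0.0361). *Arhgef1*, a guanine nucleotide exchange factor driven by Gα13, had a limma log2 fold-change of -0.62 and an adjusted *p* of 0.0257. Neither passed the adjusted *p* of 0.01. Among 10 other regulators of Gα, 8 passed the filter, with 2 at an unadjusted *p* under 0.05, *Ric8a* and *Rgs9bp*, neither of which passed the fold threshold. *Rgs9bp*, an anchor of R7 RGS proteins, was at 1.08 and 0.948 CPM in CAF-vec and at 0.241, 0.263 and 0.282 CPM in CAF-200 (log2 difference -0.99, or -1.62 at a pseudocount of 0.1, which lies past the fold threshold). *Ric8a*, a chaperone and exchange factor of Gα subunits, was at 58.1 and 53.3 CPM in CAF-vec and at 36.4, 36.9 and 33.9 CPM in CAF-200 (limma log2 fold-change -0.63 at an adjusted *p* of 0.00765). Both had all CAF-200 samples below the CAF-vec samples, but *Rgs9bp* passed the filter only through CAF-vec, where it was high, so its difference is a description. Among 21 effector genes, 10 passed the filter, with a median of -0.14 and 3 at an unadjusted *p* under 0.05. The adenylyl cyclase gene *Adcy9* (limma log2 fold-change -0.66 at an adjusted *p* of 0.0152) and the phospholipase C gene *Plcb4* (-0.65, adjusted *p* = 0.0136, limma) had the 2 largest differences and did not pass the threshold.

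The samples and their labels bear on these values as follows. *Zeb1*, a repressor of epithelial genes and an established miR-200 target, was at 43.5 and 50.7 CPM in CAF-vec and at 37.8, 37.5 and 34.1 CPM in CAF-200 (limma log2 fold-change -0.36 at an adjusted *p* of 0.0504). *Zeb2* was at 46.2 and 29.8 CPM in CAF-vec and at 31.9, 31.8 and 31.1 CPM in CAF-200, so its groups overlapped (limma log2 fold-change -0.23 at an adjusted *p* of 0.374, or 0.083 without CAF-vec replicate 1 and -0.54 without CAF-vec replicate 2). The level of the miR-200 RNAs was not analysed here. By RT-qPCR, the study reports overexpression of miR-200a, miR-200b and miR-429 in CAF-200, and lower *Zeb1* mRNA. The spread was wider between the CAF-vec samples, with an SD of the log2 difference of 0.49 and 499 genes beyond 1 log2 unit, than between pairs of CAF-200 samples, at 0.19 to 0.20 and 36 to 46 genes. The difference between the CAF-vec samples correlated with the GC content of the transcript (Spearman correlation of 0.28 across 12119 genes, which share these 2 libraries and are not independent). The difference of CAF-200 minus CAF-vec had a Spearman correlation of -0.289 with GC content across the same genes. Of the 8 RGS genes above the filter, 4 (*Rgs10*, *Rgs12*, *Rgs17* and *Rgs19*) lay on the side of the trend between the CAF-vec samples, split at the median of 50.1% GC, and 4 (*Rgs2*, *Rgs3*, *Rgs4* and *Rgs16*) on the other side. The part of GC content in these values was not tested.

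Of 10 fibroblast markers, *Col1a1* was at 1543 CPM or more in every sample and *Fap* did not exceed 0.391 CPM. Of these markers, 3 were called higher in CAF-200 (limma), in the same direction as *Rgs16* and *Rgs2*, *Lum* (log2 fold-change 2.82), *Dcn* (2.75) and *Thy1* (1.46), and 0 were called lower. The other 7 markers summed to 16940 and 13040 CPM in CAF-vec. In CAF-200 these sums were lower, at 10230 to 11210 CPM, the opposite direction, but the 7 did not move together. *Col1a1* and *Col1a2* were lower in every CAF-200 sample (log2 fold-change -0.91 and -0.75, or -0.31 and -0.24 without CAF-vec replicate 1). *Col3a1* was higher in every CAF-200 sample (1.02, or 0.47 without CAF-vec replicate 2). *Vim*, *S100a4*, *Pdgfra* and *Fap* overlapped between the groups. *Lum* and *Dcn* were at 3.24 to 8.18 CPM in CAF-vec and at 26.5 to 61.5 CPM in CAF-200. Epithelial markers summed to at most 0.421 CPM and endothelial markers to at most 0.857 CPM, and the leukocyte markers *Adgre1* and *Cd3e* were listed at 0 in all samples, with *Ptprc* at 0.0404 CPM or less. The sum of 6 leukocyte markers was 3.36 and 7.004 CPM in CAF-vec and between 9.91 and 10.5 CPM in CAF-200. *Lyz2* alone was called higher (log2 fold-change 1.91 at an adjusted *p* of 0.00395, limma), while *Cd68* overlapped between the groups, with means of 3.63 CPM in CAF-vec and 3.08 CPM in CAF-200. Of 10 mural cell markers, 2 were called higher in CAF-200, the contractile genes *Acta2* (log2 fold-change 2.63) and *Tagln* (2.94), while *Kcnj8* and *Abcc9*, which like *Rgs5* mark pericytes, were listed at 0 in all samples. For α-SMA, the protein that *Acta2* encodes, the study reports a decrease in CAF-200 by staining, the opposite direction. The reason for this was not tested. The sum of the mural cell list was 376.7 and 392.0 CPM in CAF-vec, against 1174 to 1274 CPM in CAF-200, in the same direction as *Rgs16* and *Rgs2*. Without *Acta2* and *Tagln* the other 8 markers summed to 228.8 and 230.2 CPM in CAF-vec. Their CAF-200 sums went in the opposite direction, at 185.5 to 197.7 CPM, but most of each sum was *Pdgfrb*. For *Pdgfrb* the CAF-vec values were 213.8 and 218.4 CPM, and the CAF-200 values were 186.8, 184.8 and 174.1 CPM. *Cspg4*, *Notch3*, *Mcam* and *Des* overlapped between the groups, and *Myh11* did not exceed 0.0692 CPM in any sample. The part of the fibroblast, leukocyte and mural cell markers in the RGS values was not tested.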

How the data were processed

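RNA of murine lung CAFs was sequenced as stranded mRNA libraries, in 2 samples of CAF-vec and 3 of CAF-200. The authors deposited CPM values of 21835 genes, normalized by TMM (library scaling by a trimmed mean) according to the table's name. Per the labels, the submitters' processing notes name FastQC, cutadapt, Trimmomatic, STAR, RSEM and edgeR, and the builds GRCm38 and mm10, without versions. The extraction kit in the labels (AccuPrep) differs from that in the methods (XENOPURE), which describe triplicates. Columns summed to 999956 to 1000111 CPM and whole reads could not be recovered, so the depth is unknown and no count test was run. All sample columns were used.

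Values were compared on log2(CPM + 0.5) for 12175 genes reaching 0.5 CPM in 2 or more samples, with limma 3.58.1 (R 4.3.3; lmFit, eBayes with a variance trend) and Benjamini-Hochberg adjustment, and genes were called where the adjusted *p* was under 0.01 and the log2 difference beyond 1. The fit was also run on simulated data in which both groups had the same spread, so that run does not cover the wider spread between the CAF-vec samples. RGS genes enter the fit but their *p* values are not reported. The genes, lists and tests were chosen with earlier results of these data known. Named genes are every RGS gene, all called genes of each list or, where none was called, the 2 with the largest differences, the 3 genes nearest to *Rgs16*, and *Zeb1* and *Zeb2*; others are marked. Annotation was GENCODE M21, and miRNA and promoter sequences were RefSeq's. Alternatives were other pseudocounts, filters, scalings and thresholds, no variance trend, each sample left out, and the replicate number as a block. Python 3.11.15, pandas 2.3.3, numpy 2.4.6 and matplotlib 3.10.9 were used. A few genes of the lists are not reported here by name.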

Additional observations from a re-analysis of the deposited data

How the results depend on the processing

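Of the RGS genes, 1 was past both thresholds in the higher direction. This count was 0 with at least 1 CPM in every sample (*Rgs16* then being removed by the filter), where 200 of 11097 genes were higher. It was 2 after median centring, quantile normalization or at an adjusted *p* under 0.05, where 365, 343 and 368 of all 12175 genes were higher. With 1 CAF-200 sample left out it was 0, in fits that called 0 or 1 of all genes. The count of lower ones was 0 in all these settings. The counts of the other lists are likewise to be read against those of all genes. Among RGS-like domain genes, the lower count was 1 at an adjusted *p* under 0.05, and 0 to 1 with 1 sample left out. Among G protein subunits, 2 were lower at an adjusted *p* under 0.05 and 0 to 2 with 1 sample left out, and 0 were higher under the stricter filter or the replicate block and 0 to 2 with 1 sample left out. Among other regulators of Gα, 1 was lower at a pseudocount of 0.1 or after quantile normalization, 2 at a log2 difference beyond 0.5, and 0 to 1 with 1 sample left out. Among receptors, 1 was lower at a pseudocount of 0.1, 3 at a log2 difference beyond 0.5 and 0 to 1 with 1 sample left out, and 1 was higher under the stricter filter, a pseudocount of 1, quantile normalization or the replicate block and 0 to 3 with 1 sample left out.

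Over all genes, 286 lower and 289 higher became 70 and 101 with the replicate block, 677 and 541 at a log2 difference beyond 0.5, and 436 lower at an adjusted *p* under 0.05. Leaving out a sample gave 0 to 955 lower and 0 to 625 higher. Without CAF-200 replicate 1, 2 or 3 there were 0 lower and 0, 1 or 0 higher, and without CAF-vec replicate 1 or 2 there were 325 or 955 lower and 347 or 625 higher, the lone CAF-vec sample being assumed to vary like CAF-200. The cause of these shifts was not tested. The log2 fold-change of *Zeb2* ranged from -0.54 to 0.083 with 1 sample left out, turning positive without CAF-vec replicate 1. Replicate numbers are shared by 2 pairs only, whose deviations correlated at 0.249 and 0.134, and nothing in the labels ties them, so the block is an alternative only. With it *Gnai1* (adjusted *p* = 0.0201, limma) and *Ednra* were no longer called. The depth is unknown, so counting error cannot be given for low genes such as *Rgs5* and *Rgs17*.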
